A study of Homo sapiens with 4 samples.

Results

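The 36 genes described here are DNA replication genes: origin licensing factors, the replicative helicase and its activators, polymerases, the sliding clamp and its loader, enzymes of lagging-strand processing and of deoxynucleotide supply, regulators of entry into S phase, and factors that package or guard new DNA. They were chosen by symbol, with earlier results of these data known. All 36 were found among the 19739 genes of the coding expression table. Transcript levels had been measured by RNA sequencing in 2 lines derived from human liver cancer, Huh7 and HepG2, in 4 groups of 1 library each. The groups were Huh7 given low-frequency ultrasound and RSL3@O2-ICG NBS for 24 h, untreated Huh7, cells labelled HepG2 given the same combination, and untreated cells labelled HepG2. RSL3 is a small molecule that inhibits the lipid peroxidase GPX4 and induces ferroptosis, an iron-dependent form of cell death. The labels do not say what NBS stands for, and no group received the ultrasound or the RSL3 preparation alone, so their parts in any difference cannot be told apart. No library repeats another, so differences within a line carry no test, and each comparison is of 2 libraries.

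Levels are FPKM, the number of sequenced fragments per kilobase of transcript and per 1000000 fragments, which allows genes of unequal length to be set side by side. The depth inferred from the smallest values was 22900000 to 26400000 fragments per library. The labelled cell types were checked by 7 hepatocyte markers. These stood between 4.33 and 883 FPKM in the Huh7 libraries but between 0 and 0.449 FPKM in both libraries labelled HepG2, where ALB and FGA were at 0, so these cells are named here by their label only. There were 10 markers of blood cells, endothelium and fibroblasts. At 1 FPKM or more were 3 of them in treated and 2 in untreated Huh7, and 3 in each library labelled HepG2. The blood cell marker PTPRC was at 0 in all 4 libraries. The 10 markers summed to 6.85 FPKM in treated and 11.2 FPKM in untreated Huh7, and to 25.1 FPKM in treated and 9.07 FPKM in untreated cells labelled HepG2. CD68, whose exons largely overlap another gene, made up most of the sum of 25.1 FPKM. Without it the sums were 4.35 FPKM in treated and 7.69 FPKM in untreated cells labelled HepG2. In Huh7 they were 4.02 FPKM treated and 10.7 FPKM untreated. The highest of the other markers was PDGFRB, at 5.67 FPKM in untreated cells labelled HepG2. It was followed by COL1A2 at 4.83 FPKM and LYZ at 4.11 FPKM, both in untreated Huh7. The part of other cell types in the differences below was not tested.

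Replication begins in G1, when the origin recognition complex (ORC), with its subunit ORC1, and the loading factors CDC6 and CDT1 place rings of the MCM2 to MCM7 proteins on DNA. Cyclin E and its kinase drive entry into S phase, in which CDC45 and the GINS complex join the MCM ring to form the active helicase, the polymerases copy both strands, and the clamp PCNA tethers them to the template. Many of these genes are transcribed by E2F factors as cells pass from G1 to S.

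Most of the 36 genes were lower in the treated than in the untreated library of both lines, and more so in Huh7. The ratio used throughout is log2((treated FPKM + 1)/(untreated FPKM + 1)), and a gene was counted when it was at least 2-fold lower or higher on that scale. In Huh7, 34 of 36 ratios were below 0, with a median of -0.65, while 41.2% of the 11945 genes measured in that line were below 0 and their median ratio was 0.10. At least 2-fold lower were 11 of the 36 genes in Huh7, against 2.19% of all genes measured, and none was 2-fold higher, against 3.88%. In cells labelled HepG2, 28 of 36 ratios were below 0, with a median of -0.43, while 43.1% of 11843 genes were below 0 and the median of all was 0.09. There 1 of the 36 genes was at least 2-fold lower, against 2.43% of all genes measured, and none was 2-fold higher, against 6.7%. Added over the 36 genes, the FPKM came to 904.7 in treated and 1711.7 in untreated Huh7, and to 1186.4 in treated and 1629.4 in untreated cells labelled HepG2. In libraries made from whole cultures, fewer cells in S phase and less of each transcript per cell cannot be told apart.

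**Figure D1:**
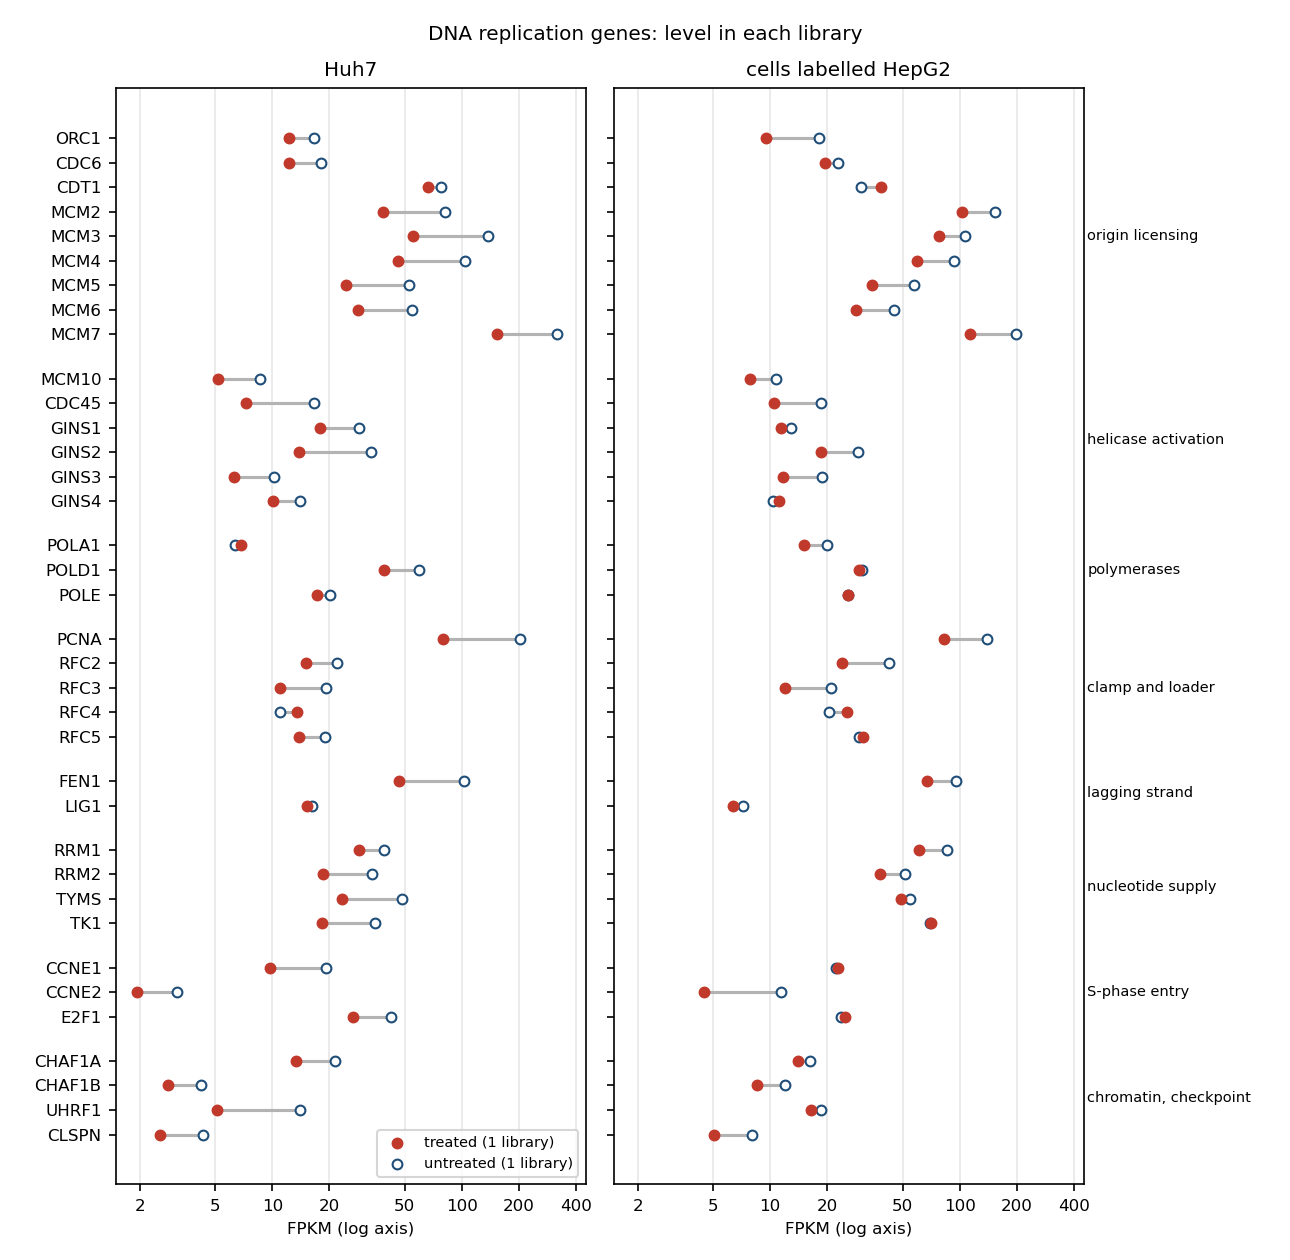
Level of each of the 36 genes in FPKM (log axis) in Huh7 (left) and in cells labelled HepG2 (right), 1 library per point, with filled points for treated and open points for untreated cells and a line joining the 2 libraries of a line. The filled point lies left of the open point for 34 genes in Huh7 and for 28 in cells labelled HepG2.

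The promoters of these genes carry sequence features that the choice of genes did not use. Promoter windows from RefSeq (GRCh38.p14; 250 bases before to 50 bases after the start of the gene) were found for 32 of the 36 genes and searched on both strands for 3 motifs. These were an E2F site (TTTCCCGC, TTTGGCGC, TTTGCCGC or TTTCGCGC), a CCAAT box (CCAAT), which NF-Y binds, and the cell cycle homology region (TTTGAA or TTCGAA), an element of genes expressed in G2 and mitosis. The E2F letters can overlap on opposite strands, and each window was counted once per motif. To show the E2F letters where they lie, the 150 bases before the start are printed for 5 genes that were lower in both lines and hold a match in that stretch, and for RFC4, which was higher in both and holds no match. Capitals mark the E2F letters on either strand. These genes are examples only. CDC45 and FEN1, without a match, were also lower in both lines, and CDT1, with a match, was higher under the HepG2 label.

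PCNA: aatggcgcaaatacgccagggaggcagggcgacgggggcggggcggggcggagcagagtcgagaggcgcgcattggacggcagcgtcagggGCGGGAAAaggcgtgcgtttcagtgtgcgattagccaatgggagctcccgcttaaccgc
MCM7: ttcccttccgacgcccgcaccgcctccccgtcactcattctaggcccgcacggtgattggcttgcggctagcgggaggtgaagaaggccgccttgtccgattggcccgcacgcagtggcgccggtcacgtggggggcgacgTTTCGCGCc
MCM6: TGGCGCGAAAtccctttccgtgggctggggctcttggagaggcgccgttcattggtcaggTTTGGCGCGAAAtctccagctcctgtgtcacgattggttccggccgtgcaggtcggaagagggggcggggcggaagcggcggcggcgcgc
GINS2: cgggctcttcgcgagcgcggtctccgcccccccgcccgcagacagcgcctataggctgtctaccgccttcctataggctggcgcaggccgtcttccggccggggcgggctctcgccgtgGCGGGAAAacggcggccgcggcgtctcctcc
UHRF1: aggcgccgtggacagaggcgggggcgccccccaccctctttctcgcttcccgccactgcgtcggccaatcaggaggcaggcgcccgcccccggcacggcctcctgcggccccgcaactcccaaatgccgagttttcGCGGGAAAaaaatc
RFC4: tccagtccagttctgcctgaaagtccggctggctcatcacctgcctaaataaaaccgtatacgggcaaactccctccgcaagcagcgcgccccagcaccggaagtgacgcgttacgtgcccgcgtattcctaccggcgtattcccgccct

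Each sequence runs 5′ to 3′ on the strand of its gene. PCNA lies on the minus strand at chr20:5126623-5126772, MCM7 on the minus strand at chr7:100101398-100101547, MCM6 on the minus strand at chr2:135876444-135876593, GINS2 on the minus strand at chr16:85688955-85689104, UHRF1 on the plus strand at chr19:4909351-4909500, and RFC4 on the minus strand at chr3:186806483-186806632. Counted from the start of the gene, the first base of the E2F letters lies at -59 in PCNA, -31 in GINS2, -14 in UHRF1 and -9 in MCM7. MCM6 has the letters on both strands, overlapping, at -90 and -86, and a second such pair at -152 and -148, which the printed stretch cuts at its edge. MCM7 has a further match at -187, before the printed stretch.

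An E2F site was found in 18 of the 32 promoters (56.2%), against 4.38% of 14868 promoters of genes in the coding table. CCAAT boxes were found in 19 of 32 (59.4%), against 36.3% of coding promoters. The cell cycle homology region was found in only 2 of 32 (6.25%), MCM6 and RRM1, against 13.3% of coding promoters. In a list of 53 other replication genes, of 42 promoters found, 9 (21.4%) had an E2F site. There 23 (54.8%) had a CCAAT box and 3 (7.14%) the cell cycle homology region, shares close to those of the 32 promoters. In a list of 30 mitosis genes, of 24 promoters found, 3 (12.5%) had an E2F site, 19 (79.2%) a CCAAT box and 18 (75.0%) the cell cycle homology region. Replication genes with and without an E2F match had medians close to each other. The median ratio of the 18 genes with a match was -0.71 in Huh7 and -0.42 in cells labelled HepG2, and that of the 14 without one was -0.61 in Huh7 and -0.42 in cells labelled HepG2. A match is a run of letters in a fixed window and does not show binding.

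**Figure D2:**
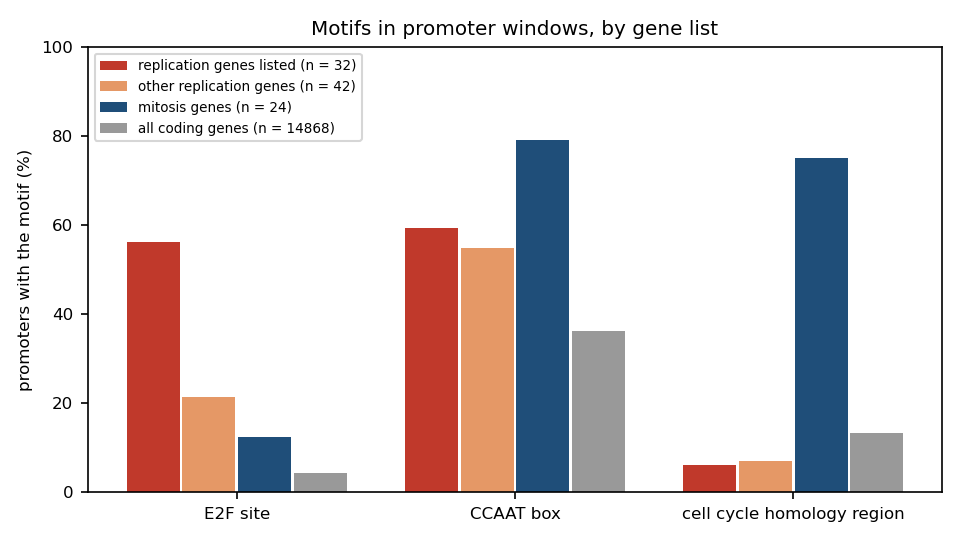
Share of promoter windows, in percent, that hold an E2F site, a CCAAT box or a cell cycle homology region, for the replication genes described here (n = 32), other replication genes (n = 42), mitosis genes (n = 24) and all coding genes with a window (n = 14868). The E2F bar is highest for the replication genes at 56.2%, and the cell cycle homology bar is highest for the mitosis genes at 75.0%.

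Origin licensing held the most 2-fold differences. All 6 subunits of the MCM2 to MCM7 ring, which forms the motor of the replicative helicase, were lower in the treated library of both lines, and 5 of the 6 were at least 2-fold lower in Huh7. Their FPKM summed to 346 in treated and 747 in untreated Huh7, a change of -53.7%, and to 415 in treated and 652 in untreated cells labelled HepG2, a change of -36.4%. MCM7 was the most abundant subunit in every library, with 153 FPKM in treated and 316 in untreated Huh7 and 113 in treated and 198 in untreated cells labelled HepG2. MCM3 had 55.1 FPKM in treated and 138 in untreated Huh7, the lowest MCM ratio at -1.31, and 77.3 in treated and 106 in untreated cells labelled HepG2, a ratio of -0.45. MCM4 had 46.2 FPKM in treated and 104 in untreated Huh7, and 59.8 in treated and 93.1 in untreated cells labelled HepG2. For these 3 subunits, and for MCM5 and MCM6, both treated libraries stood below both untreated ones. The share of all genes in that order was not counted, so this and the same order in genes below are descriptions only.

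MCM2 had 38.1 FPKM in treated and 81.3 in untreated Huh7, and 102 in treated and 153 in untreated cells labelled HepG2. MCM5 had 24.4 FPKM in treated and 52.4 in untreated Huh7, and 34.3 in treated and 57.1 in untreated cells labelled HepG2. MCM6 had 28.4 FPKM in treated and 54.6 in untreated Huh7, and 28.5 in treated and 44.7 in untreated cells labelled HepG2. MCM2 was the only subunit of the ring that was higher in treated cells labelled HepG2 than in untreated Huh7, so its groups overlap across lines. The order of the 6 subunits by FPKM was the same in both libraries of a line but differed between lines: MCM7, MCM3, MCM4, MCM2, MCM6, MCM5 in Huh7, and MCM7, MCM2, MCM3, MCM4, MCM5, MCM6 in cells labelled HepG2. The ratio of the most to the least abundant subunit was 6.28 in treated and 6.02 in untreated Huh7, and 3.97 in treated and 4.43 in untreated cells labelled HepG2.

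Among the factors that load the ring, ORC1 stood lowest under the HepG2 label. ORC1, the origin recognition subunit, had 12.2 FPKM in treated and 16.5 in untreated Huh7, and 9.47 in treated and 18.2 in untreated cells labelled HepG2. Its ratio of -0.87 was the second lowest of the 36 genes under the HepG2 label, and -0.41 in Huh7. CDC6 had ratios of -0.53 in Huh7 and -0.21 in cells labelled HepG2. CDT1, which brings the MCM ring to the origin and is restrained by geminin, had 66.0 FPKM in treated and 77.5 in untreated Huh7, a ratio of -0.23, and 38.5 in treated and 30.2 in untreated cells labelled HepG2, a ratio of 0.34. That was the highest ratio of the 36 genes under the HepG2 label.

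Among the genes that turn the loaded ring into a moving helicase, CDC45 and GINS2 were 2-fold lower in Huh7. CDC45 had 7.24 FPKM in treated and 16.6 in untreated Huh7, a ratio of -1.09, and 10.4 in treated and 18.5 in untreated cells labelled HepG2, a ratio of -0.77. GINS2 had 13.8 FPKM in treated and 33.0 in untreated Huh7, a ratio of -1.20, and 18.5 in treated and 28.98 in untreated cells labelled HepG2, a ratio of -0.62. For both genes the 2 treated libraries stood below the 2 untreated ones. The 4 subunits of GINS, which work as 1 complex, had unlike ratios: -0.67 for GINS1, -0.62 for GINS3 and -0.44 for GINS4 in Huh7, and -0.16, -0.65 and 0.09 for the same genes in cells labelled HepG2. GINS4 had 10.1 FPKM in treated and 14.1 in untreated Huh7, and 11.1 in treated and 10.3 in untreated cells labelled HepG2, so its 4 libraries lay close together. MCM10, a helicase activation factor, had ratios of -0.63 in Huh7 and -0.42 in cells labelled HepG2.

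By their median, the catalytic subunits of the 3 replicative polymerases stood nearer to 0 than the licensing genes. POLD1 in Huh7 and POLA1 under the HepG2 label stood near the medians of the 36 genes, -0.65 and -0.43. POLE, which copies the leading strand, had ratios of -0.21 in Huh7 and 0.00 in cells labelled HepG2. POLD1, which copies the lagging strand, had ratios of -0.60 in Huh7 and -0.05 in cells labelled HepG2. POLA1, which with primase starts each new strand, had 6.86 FPKM in treated and 6.32 in untreated Huh7, a ratio of 0.10 that was among the 3 highest in that line, and 15.1 in treated and 19.99 in untreated cells labelled HepG2, a ratio of -0.38. The median of the 3 polymerase genes was -0.21 in Huh7 and -0.05 in cells labelled HepG2, against -1.04 and -0.63 for the 9 licensing genes.

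PCNA, the ring-shaped clamp that holds polymerases on DNA, had the lowest ratio of all 36 genes in Huh7. It had 79.7 FPKM in treated and 202 in untreated Huh7, a ratio of -1.33, and 82.2 in treated and 139.6 in untreated cells labelled HepG2, a ratio of -0.76. The treated libraries lay close to each other and below both untreated ones. At least 2452 fragments in treated and 7184 in untreated Huh7 lay behind these values, which gives a 95% counting interval of -1.41 to -1.28 for the log2 ratio of FPKM without a pseudocount. Such intervals cover counting error only, not the spread between cultures.

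The clamp loader, in which RFC2 to RFC5 are the small subunits, had unlike ratios among its genes. RFC2 had 15.1 FPKM in treated and 21.9 in untreated Huh7, and 23.8 in treated and 42.3 in untreated cells labelled HepG2, with ratios of -0.51 in Huh7 and -0.80 in cells labelled HepG2. RFC3 had ratios of -0.75 in Huh7 and -0.77 in cells labelled HepG2. RFC4 had 13.4 FPKM in treated and 11.03 in untreated Huh7, and 25.5 in treated and 20.4 in untreated cells labelled HepG2. It was the only gene of the 36 with a ratio above 0 in both lines, at 0.26 in Huh7 and 0.30 in cells labelled HepG2. RFC5 had 13.8 FPKM in treated and 18.96 in untreated Huh7, and 30.9 in treated and 29.5 in untreated cells labelled HepG2.

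Okazaki fragments are trimmed by the flap nuclease FEN1 and sealed by the ligase LIG1. FEN1 had 46.3 FPKM in treated and 103 in untreated Huh7, a ratio of -1.13, and 66.8 in treated and 96.1 in untreated cells labelled HepG2, a ratio of -0.52. LIG1 had 15.3 FPKM in treated and 16.3 in untreated Huh7, a ratio of -0.09 that was among the 3 highest in that line, and 6.36 in treated and 7.21 in untreated cells labelled HepG2, a ratio of -0.16. Both treated libraries had less FEN1 than both untreated ones, while for LIG1 the lines stood further apart than the treatments.

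Among the enzymes of deoxynucleotide supply, TYMS and TK1 had the wider gaps between lines. TYMS, which makes thymidylate, had 23.4 FPKM in treated and 48.2 in untreated Huh7, a ratio of -1.01, and 49.2 in treated and 54.4 in untreated cells labelled HepG2, a ratio of -0.14. TK1, the salvage thymidine kinase, had 18.4 FPKM in treated and 34.8 in untreated Huh7, a ratio of -0.89, and 70.4 in treated and 69.5 in untreated cells labelled HepG2, a ratio of 0.02. The ribonucleotide reductase subunits RRM1 and RRM2 were lower in both lines, with ratios of -0.43 and -0.84 in Huh7 and of -0.48 and -0.42 in cells labelled HepG2. Of the exonic bases of TYMS, 46.6% are shared with other genes, mainly ENOSF1 on the opposite strand, and the labels do not say whether strand was kept in counting. ENOSF1 had 13.5 FPKM in treated and 7.77 in untreated Huh7, and 20.1 in treated and 11.4 in untreated cells labelled HepG2, so the TYMS values are uncertain.

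The cyclin E genes are partners of CDK2 at the start of S phase. CCNE1 had 9.67 FPKM in treated and 19.2 in untreated Huh7, a ratio of -0.92, and 22.8 in treated and 22.4 in untreated cells labelled HepG2, a ratio of 0.03. CCNE2 had 1.93 FPKM in treated and 3.15 in untreated Huh7, a ratio of -0.50, and 4.50 in treated and 11.4 in untreated cells labelled HepG2, a ratio of -1.17. CCNE2 was thus the 1 gene that was 2-fold lower under the HepG2 label, and it shares 37.1% of its exonic bases with other genes, mainly INTS8 on the opposite strand, which makes its values uncertain too. Its Huh7 values rest on at least 60 fragments in treated and 113 in untreated cells, with a 95% counting interval of -1.18 to -0.24. INTS8 had 14.7 FPKM in treated and 13.0 in untreated Huh7, and 13.2 in treated and 18.3 in untreated cells labelled HepG2. E2F1, the transcription factor that many of the 36 genes answer to, had 26.7 FPKM in treated and 42.2 in untreated Huh7, and 24.95 in treated and 23.7 in untreated cells labelled HepG2. Its ratio was -0.64 in Huh7 and 0.07 in cells labelled HepG2.

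Of the factors that act on new chromatin or at stalled forks, UHRF1 had the lowest ratio in Huh7 but the one nearest 0 under the HepG2 label. UHRF1, which brings the maintenance DNA methyltransferase to newly copied DNA, had 5.13 FPKM in treated and 13.9 in untreated Huh7, a ratio of -1.28 that was the third lowest in that line. In cells labelled HepG2 it had 16.5 FPKM treated and 18.5 untreated, a ratio of -0.16. Only treated Huh7 was far from the other libraries. The histone chaperone subunits CHAF1A and CHAF1B had ratios of -0.65 and -0.45 in Huh7 and of -0.18 and -0.45 in cells labelled HepG2. CLSPN, which couples the fork to the checkpoint kinase CHEK1, had a ratio of -0.58 in both lines.

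Between the lines, the direction was mostly shared and the size was not. The ratio was below 0 in both lines for 27 of the 36 genes, against 23.3% of the 10758 genes measured in both, above 0 in both for 1, and of opposite sign for 8. After rescaling with median-of-ratios size factors, the ratios of POLA1 in Huh7 and of POLE, TK1 and CCNE1 in cells labelled HepG2 lay just below 0, so their sign rests on the scaling. It was -0.5 or less in both lines for 14 genes, against 2.7% of all measured in both. None of the 36 was 2-fold lower in both. The Huh7 ratio was the lower one for 28 genes, and the median difference, Huh7 minus HepG2 label, was -0.38. The share of all genes with the lower ratio in Huh7 was not counted, so this count is a description only. The widest gaps in that direction were -1.13 for UHRF1, -0.94 for CCNE1, -0.90 for TK1, -0.87 for TYMS and -0.86 for MCM3, and in the other direction 0.66 for CCNE2, 0.48 for POLA1 and 0.47 for ORC1. Across the 36 genes the ratios of the lines had a Pearson r of 0.39 and a Spearman rho of 0.35, as a description of genes that are not independent replicates. Treated Huh7 was the lowest of the 4 libraries for 27 genes, against 19.5% of 13030 genes, and the highest for none, against 28.0%.

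**Figure D3:**
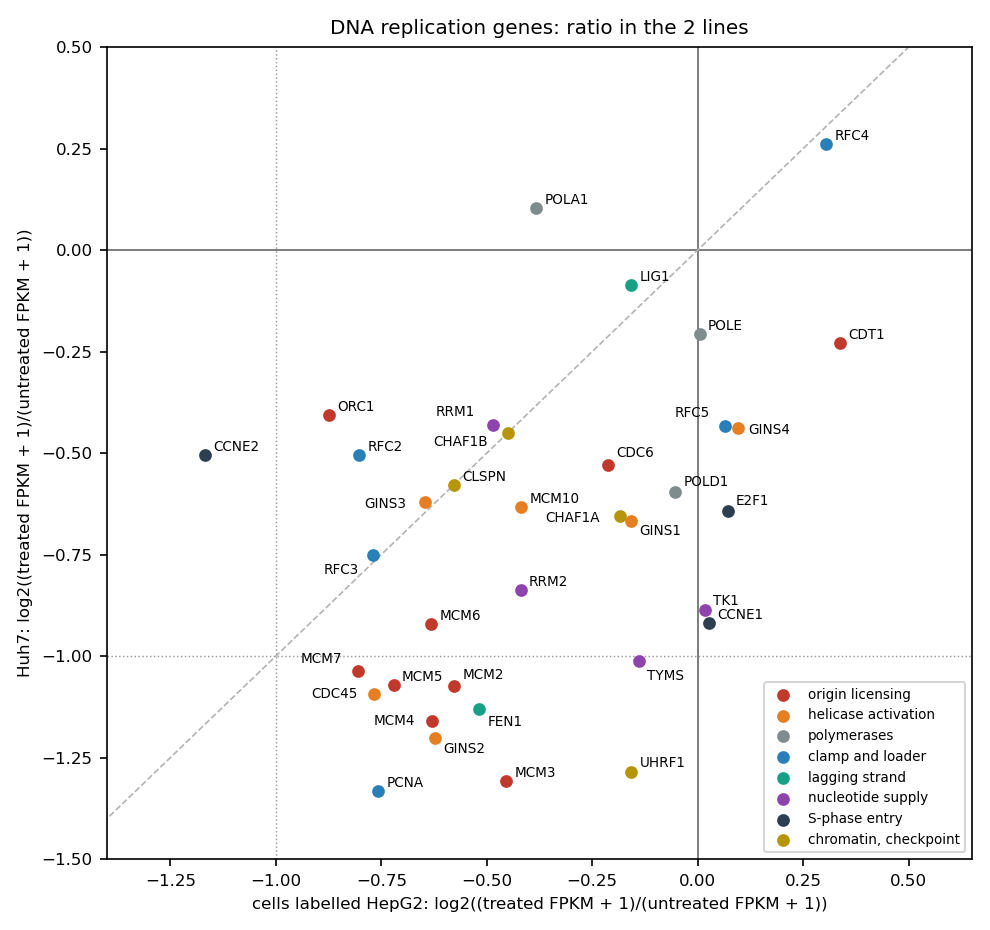
Log2 ratio of treated over untreated FPKM, each plus 1, in Huh7 (vertical axis) and in cells labelled HepG2 (horizontal axis); each point is 1 of the 36 genes, coloured by role, dotted lines mark 2-fold and the dashed line marks equal ratios. Points below the dashed line (28 of 36) had the lower ratio in Huh7, a share not counted over all genes. The 11 points below the lower dotted line were at least 2-fold lower in Huh7.

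The only fit that treats any libraries as repeats was limma with cell line as a block, which asks whether both lines differed alike. No gene of the 13030 fitted, and so none of the 36, had an adjusted p under 0.05 (limma with Benjamini-Hochberg adjustment), which is 0.0% called. At an unadjusted p under 0.05, 16 of the 36 genes were called, all lower, against 3.78% of genes called lower among all fitted, and without the block by cell line 2 of the 36 were called. The lowest adjusted p of the 36 was 0.215, for MCM7, with a log2 difference of -0.92 ± 0.19 (SE), lower in 2 of 2 lines. PCNA had a difference of -1.05 ± 0.22 (SE) and an adjusted p of 0.218 by limma, also lower in 2 of 2 lines. With 1 residual degree of freedom these p-values may be too small and say nothing about repeat cultures.

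Beside the 36 genes stand 53 other replication genes, such as the remaining ORC, polymerase and primase subunits and fork protection factors, which were nearer to the median of all genes. Their median ratio was -0.11 in Huh7, with none 2-fold lower or higher, and -0.20 in cells labelled HepG2, with 3 lower and 1 higher. For this list and the lists below, 2.19% of all genes measured were 2-fold lower and 3.88% higher in Huh7. Under the HepG2 label 2.43% were 2-fold lower and 6.7% higher. Both lists were chosen with earlier results of these data known, so the gap between them is a description only. POLE2, a subunit of the leading-strand polymerase, had 8.02 FPKM in treated and 7.91 in untreated Huh7, and 3.74 in treated and 8.72 in untreated cells labelled HepG2. ESCO2, which acetylates cohesin in S phase, had 4.56 FPKM in treated and 4.73 in untreated Huh7, and 4.09 in treated and 10.96 in untreated cells labelled HepG2. Treated cells labelled HepG2 had the lowest level of both genes among the 4 libraries. POLA2 and POLD4, with ratios of -0.43 and 0.77 in Huh7 and of -1.53 and 1.29 in cells labelled HepG2, share over 20% of their exonic bases with other genes and are uncertain.

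Genes that switch the replication programme on or off were described by a list of E2F, RB and cyclin genes. CCND1, a D-type cyclin that starts phosphorylation of RB, had 24.1 FPKM in treated and 66.4 in untreated Huh7, and 38.5 in treated and 46.2 in untreated cells labelled HepG2. SKP2, which marks the CDK inhibitor p27 for degradation, had 38.0 FPKM in treated and 86.0 in untreated Huh7, and 39.6 in treated and 72.0 in untreated cells labelled HepG2. E2F2 had ratios of -0.97 in Huh7 and -1.01 in cells labelled HepG2, and the repressor E2F7 had ratios of 0.55 in Huh7 and 1.03 in cells labelled HepG2. The list of 25 measured E2F, RB and cyclin genes had a median of 0.00 in Huh7, with 2 lower and none higher by 2-fold, and of -0.26 in cells labelled HepG2, with 1 lower and 1 higher.

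CDKN1A, the p21 inhibitor of cyclin-dependent kinases and a p53 target, had ratios of opposite sign in the 2 lines. It had 6.07 FPKM in treated and 13.3 in untreated Huh7, a ratio of -1.01, and 162 in treated and 31.6 in untreated cells labelled HepG2, a ratio of 2.32. Of 19 p53 targets measured under the HepG2 label, 6 were 2-fold higher, against 6.7% of all genes measured, and none lower, with a median of 0.50. Of 18 measured in Huh7 none was 2-fold higher, against 3.88%, and 1, CDKN1A itself, was lower, against 2.19%, with a median of 0.04. SESN2 had 8.57 FPKM in treated and 8.95 in untreated Huh7, and 28.6 in treated and 4.43 in untreated cells labelled HepG2. MDM2, BBC3, TNFRSF10B and XPC were the other 4, with ratios of 1.05 to 1.22 under the HepG2 label and of -0.17 to 0.66 in Huh7, and XPC is uncertain because 30.4% of its exonic bases are shared. The list of 7 CDK inhibitors, which includes CDKN1A, had a median of 0.04 over 6 measured in Huh7 and of 0.14 over 7 in cells labelled HepG2, with CDKN1A as its only 2-fold difference.

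Mitosis genes stood on the other side of the replication genes in Huh7. Of 30 such genes 28 were above 0 in Huh7, 7 of them 2-fold higher, with a median of 0.67, whereas in cells labelled HepG2 21 were below 0 and the median was -0.09. Over all genes measured, 41.2% were below 0 and 3.88% were 2-fold higher in Huh7, and 43.1% were below 0 under the HepG2 label. HMMR, a spindle protein, had 21.9 FPKM in treated and 4.78 in untreated Huh7, and 20.4 in treated and 12.3 in untreated cells labelled HepG2. TTK, the spindle checkpoint kinase, had 21.4 FPKM in treated and 5.53 in untreated Huh7, and 11.3 in treated and 10.8 in untreated cells labelled HepG2. Both were highest in treated Huh7, the library in which most replication genes were lowest. CENPE, CENPF, DLGAP5 and NDC80, proteins of kinetochore and spindle, had ratios of 1.13 to 1.67 in Huh7 and of -0.15 to 0.20 in cells labelled HepG2. TOP2A, the topoisomerase that untangles sister DNA and the only mitosis gene 2-fold lower under the HepG2 label, had ratios of 1.12 in Huh7 and -1.08 in cells labelled HepG2; it was named after its values were seen. Among 17 checkpoint genes the median was 0.44 in Huh7, with BRCA2 2-fold higher at 1.05, and -0.02 in cells labelled HepG2, with none past 2-fold.

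**Figure D4:**
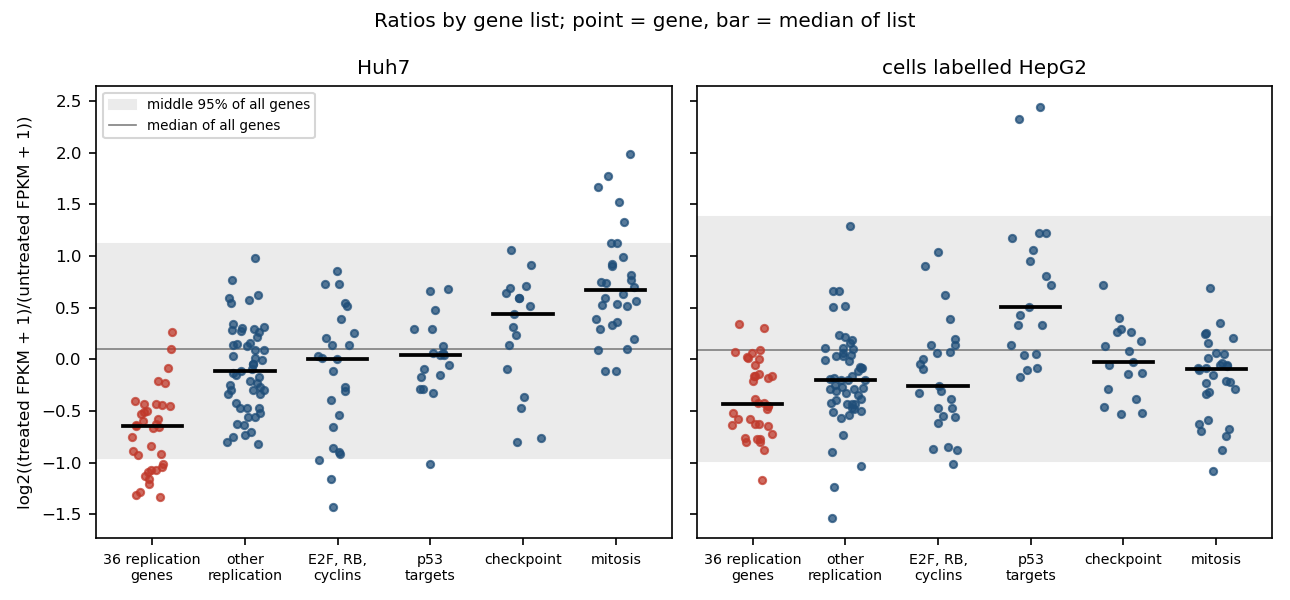
Log2 ratio of treated over untreated FPKM, each plus 1, for the genes of 6 lists in Huh7 (left) and in cells labelled HepG2 (right); a point is a gene, a black bar the median of its list, the grey band the middle 95% of all genes measured and the grey line their median. The median of the replication genes is the lowest of the lists in both panels, at -0.65 and -0.43. That of the mitosis genes is the highest in Huh7, at 0.67.

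The untreated lines set the starting levels. Of the 36 genes, 4 were at least 2-fold lower in untreated Huh7 than in untreated cells labelled HepG2, against 17.2% of 12446 genes, and 3 were 2-fold higher, against 17.5%, so the share past 2-fold was not above that of all genes. The lower ones were CCNE2 at -1.57, POLA1 at -1.52, CHAF1B at -1.32 and RRM1 at -1.13, and the higher ones CDT1 at 1.33, GINS1 at 1.10 and LIG1 at 1.07, all as log2 of Huh7 over HepG2 label. The median over the 36 genes was -0.16. All 36 were at 1 FPKM or more in all 4 libraries, between 1.93 FPKM for CCNE2 in treated Huh7 and 316 FPKM for MCM7 in untreated Huh7.

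The authors' deposited table of KEGG terms for Huh7 lists 10 genes under DNA replication, a term with 36 background genes of its own. It gives a p of 0.0578, corrected to 0.711, and 8 of the 10 are among the genes described here: FEN1, PCNA and MCM2 to MCM7. For cells labelled HepG2 the authors' deposited table lists 4 genes of that term with a p of 0.904, corrected to 1.0. None of those 4 is among the genes described here. In the authors' deposited table of Gene Ontology terms, DNA replication initiation holds 11 of 34 genes in Huh7 with a corrected p of 0.0423, and 6 of 34 in cells labelled HepG2 with a corrected p of 1.0. For Huh7 the authors' deposited table gives a corrected p of 0.0568 for MCM complex (6 of 12 genes) and of 1.0 for DNA replication (27 of 339), DNA-dependent DNA replication (18 of 143) and the G1/S transition (35 of 280). Of the 36 genes described here, the authors' deposited table names 16 in Huh7, where 2438 of 22135 background genes were selected (11%). In cells labelled HepG2 the authors' deposited table names 2 of the 36, ORC1 and CCNE2, where 3213 were selected (14.5%). These tables rest on the same 4 libraries and are not independent evidence.

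Besides TYMS and CCNE2, 3 of the 36 genes share at least 20% of their exonic bases with another gene: MCM2 (23.6%), GINS4 (23.6%) and RRM2 (20.2%). The partners of MCM2 and GINS4 are long noncoding genes listed at no more than 0.146 FPKM in any library, and for the partner of RRM2 no value was used here. In the table of long noncoding RNA, 17 transcripts overlap the locus of a gene among the 36. The most abundant of them, an assembled transcript over E2F1 with no gene name, had 3.20 FPKM in treated and 4.99 in untreated Huh7, and 2.65 in treated and 2.82 in untreated cells labelled HepG2, below the level of E2F1 itself in each library.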

How the data were processed

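Libraries were made with an Illumina TruSeq RNA kit from Trizol-extracted RNA, per the labels' protocols. The authors deposited FPKM per coding gene and per long noncoding transcript, 1 column per library, per the file headers. The submitters' processing notes list GATK, HISAT2, Bowtie2 2.2.8, SAMtools 0.1.18, Picard 1.96, Cuffdiff 2.1.1 and StringTie 1.3.1. Their roles, the genome build and any annotation were not given in the sources used here. Positions of 19650 of the 19664 genes with an identifier in GENCODE 29 overlap that annotation, so coordinates are GRCh38 by this match. The deposited enrichment tables give p-values and the number of genes per term, per the file headers.

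The 36 genes and all lists were chosen with earlier results of these data known. FPKM are not read counts, so no count model was fitted. Ratios used a pseudocount of 1 over genes at 1 FPKM or more in at least 1 library of the comparison. The tested fit was limma 3.58.1 under R 4.3.3, with trend, on log2(FPKM + 1), with cell line as block, and Benjamini-Hochberg adjustment over 13030 genes at 1 FPKM or more in at least 1 library. Libraries were paired by the cell line that the labels give. Only the limma fit was tested on simulated data. There limma, with 1 residual degree of freedom, overestimated the prior degrees of freedom of its moderation. Depth was inferred from the smallest steps in FPKM times length over 2594 genes with 1 transcript, and a transcript of 1 kb at 1 FPKM rests on 23 to 26 fragments. Ratios of genes with few fragments are understated by the pseudocount. Every one of the 36 genes is named, with values in each library for those at least 2-fold different in either line, for MCM2 to MCM7 and for the 3 highest and 3 lowest ratios of each line; in the other lists, up to 6 genes past 2-fold are named.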

Additional observations from a re-analysis of the deposited data

Results flagged for a closer look

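Each of these results had opposite signs in the 2 lines, with 1 library per group; the difference was not tested. Values are the log2 ratio of treated over untreated in Huh7 minus that in cells labelled HepG2. Among the replication genes it was -0.94 for CCNE1, -0.90 for TK1, -0.71 for E2F1, -0.57 for CDT1, -0.53 for GINS4, -0.50 for RFC5, -0.21 for POLE and 0.48 for POLA1. The ratios of CCNE1, TK1 and POLE under the HepG2 label were within 0.03 of 0, so their sign there is weak. The sign of POLE2 in Huh7, at 0.02, is weak too. So is that of the checkpoint median, -0.02 under the HepG2 label, which was 0.02 with each library rescaled to 1 sum. The 95% counting interval also spanned 0 for GINS4 (-0.13 to 0.34), RFC5 (-0.05 to 0.18) and E2F1 (-0.03 to 0.18) under the HepG2 label. In Huh7 it did so for POLA1 (-0.02 to 0.25). Among other genes it was -3.33 for CDKN1A, -2.50 for SESN2, -1.35 for TNFRSF10B, 1.05 for POLE2, 1.39 for DLGAP5, 1.28 for NDC80 and 2.199 for TOP2A. For list medians it was 0.46 for the checkpoint genes and 0.76 for the mitosis genes.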

How the results depend on the processing

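The alternatives were a pseudocount of 0.1, a filter of 5 FPKM, no filter, rescaling to 1 sum, median-of-ratios size factors, leaving out genes with 20% or more exonic overlap, and other settings of limma. Of the main results, 63 values under alternatives moved by less than counting error or 1.5 times and 3 moved by more. Size factors set the median ratio of the 36 genes in Huh7 to -0.76, and moved the median of all genes to -0.00 in Huh7, against 0.10 as deposited, and to 0.03 in cells labelled HepG2. With them 14 of the 36 genes were 2-fold lower in Huh7, the added ones being MCM6, CCNE1 and TK1, and POLA1 in Huh7 and POLE, TK1 and CCNE1 under the HepG2 label turned to just below 0. Without overlapping genes, 0 of the remaining 31 were 2-fold lower under the HepG2 label and 9 in Huh7. The counts fell because CCNE2, MCM2 and TYMS were left out. Without the pairing by cell line (no replicate block) limma called 2 of the 36 at an unadjusted p under 0.05, against 16. Over all genes limma called 3 with size factors, 1 each with the 5 FPKM filter, rescaling and robust moderation, and 0 in the other settings. A prior fitted by maximum likelihood, added after seeing the data, also called 0. Of the values of single genes and other lists, 475 moved by less than counting error and 27 by more. The sign changed in 8, none of them past 2-fold: besides those of POLA1, POLE, TK1 and CCNE1, these were the checkpoint median under the HepG2 label (0.02 with rescaling) and, in Huh7, the medians of the p53 targets (-0.06 with the 5 FPKM filter and with size factors) and the CDK inhibitors (-0.07 with size factors). No library could be left out, since each group has 1. The planned search of protein sequences was not run.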
